A study of Populus tomentosa with 9 samples.

Results

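POPTR_0003s21610 is a haem peroxidase gene of poplar, 1 of 18 genes whose deposited description contains the words haem peroxidase and 1 of 41624 genes in the deposited table. It was selected on its FPKM values, because its transcript level was lower after H2O2 and after ASA than in the control in each of 3 cell lines, so its treated and control levels are described here without a test. The measurements come from RNA sequencing of suspension cells of Populus tomentosa, with 1 library for each combination of line and treatment and no replicates. The authors' tables also give it the name POPTRDRAFT_555257 and list haem-ligand binding and peroxidase active site entries for it.

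The lines were an overexpression line, an antisense line and the wild type, and each was a single cell line. The labels do not name the gene that the constructs target, so the constructs cannot be checked by the level of that gene. All cells were kept in the dark at 25 °C and taken 5 days after subculturing. Treated cells had 3 h in 10 mM H2O2 or 3 h in 1 mM ASA, an abbreviation that the labels leave unexplained, and control cells were kept under normal conditions. The extraction protocol speaks of Arabidopsis stems, which contradicts the organism label, and the POPTR identifiers are those of poplar.

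Plant haem peroxidases of the secreted type use H2O2 to oxidise phenolic substrates in the cell wall. They are known for coupling monolignols into lignin and for cross-linking structural wall proteins, and H2O2 is therefore a substrate of these enzymes as well as a stress signal. They form large families in plants whose members differ in tissue, timing and response to stress. No protein or promoter sequence of POPTR_0003s21610 was used here.

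Between 17102469 and 19629543 reads per library were recovered from the deposited FPKM values (fragment counts divided by gene length and library size). On the first principal component of log2(FPKM + 1), which held 40.1% of the variance, the treated overexpression libraries stood apart, at -87.4 for H2O2 and -70.6 for ASA against 6.59 to 34.3 for the other 7. The difference between H2O2 and ASA in the antisense line ran against that in wild type across genes (Pearson r = -0.838 over 23350 genes, which are not independent replicates), so the treated antisense libraries are read below as labelled H2O2 and ASA. As markers of green tissue, 2 described genes were available, with summed levels of 6.70 to 36.5 FPKM after H2O2, 15.2 to 47.3 FPKM after ASA and 10.9 to 42.4 FPKM in controls. The photosystem II assembly gene POPTR_0007s07780 among them was also lower in all 6 treated libraries than in the control of its line, at 0.874 FPKM after H2O2 and 0.638 FPKM after ASA against 6.15 FPKM in the overexpression control, while the chlorophyll a/b binding gene POPTR_0014s17070 was higher in 5 of the 6 pairs, at 5.82 and 19.8 FPKM against 4.74 FPKM in overexpression and lower only in the antisense library labelled ASA (9.21 against 10.9 FPKM). The part of these markers in the peroxidase values was not tested. In these bulk samples fewer cells of a type and less RNA per cell cannot be told apart.

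In overexpression cells POPTR_0003s21610 was at 4.27 FPKM after H2O2 (107 reads) and 4.87 FPKM after ASA (117 reads), against 168 FPKM in the control (4256 reads). In antisense cells it was at 101 FPKM in the library labelled H2O2 and 89.1 FPKM in the library labelled ASA, against 337 FPKM in the control. In wild type cells it was at 33.0 FPKM after H2O2 and 36.1 FPKM after ASA, against 334 FPKM in the control. The 6 treated libraries all lay below the 3 controls, as chosen, and the overexpression line was the lowest line under every treatment. Of the 23350 genes that averaged 1 FPKM or more, called the tested genes below, 1.84% had 6 treated libraries below the 3 controls and 1.64% had them above, and of the tested genes with a description 0.957% and 0.625% did.

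**Figure D1:**
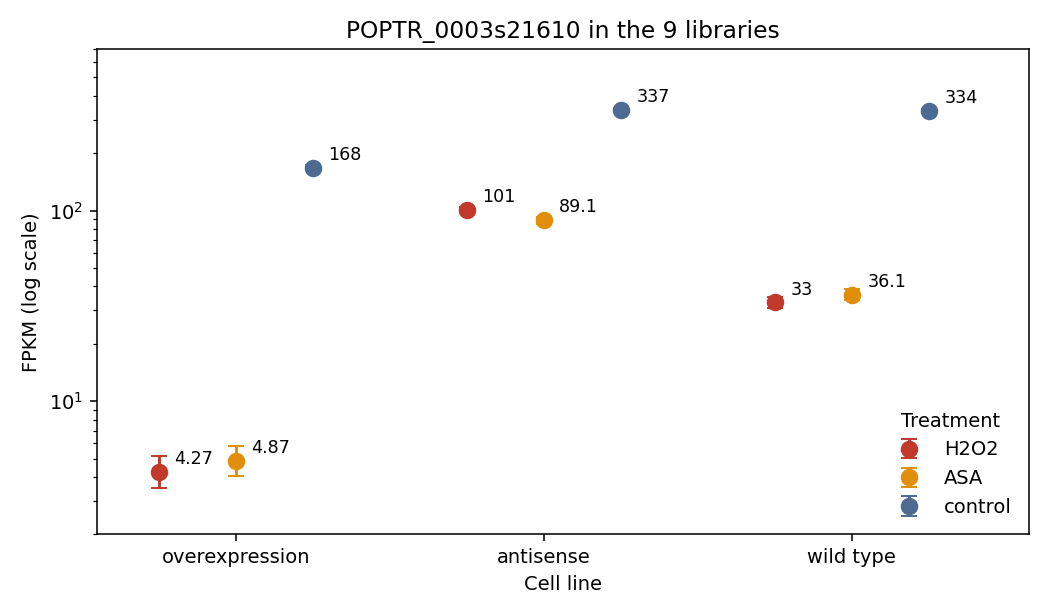
FPKM of POPTR_0003s21610 (log axis) by cell line, with 1 point per library coloured by treatment and bars for the exact 95% Poisson interval of its read count. The 6 treated libraries lie between 4.27 and 101 FPKM and the 3 controls between 168 and 337 FPKM.

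Counting error was small beside these differences. The exact 95% Poisson interval was 3.50 to 5.16 FPKM in the overexpression H2O2 library, 96.8 to 104.9 FPKM in the library labelled antisense H2O2 and 327 to 341 FPKM in the wild type control. Such intervals cover counting error only, since no condition has a replicate. A count of 3 reads in this gene corresponded to 0.118 to 0.136 FPKM, so every library was above that floor. The FPKM values imply a gene length of about 1293 bases in the authors' annotation.

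Ordered by level, the antisense control came first and the wild type control next, with a ratio of 1.01 (exact 95% counting interval 0.977 to 1.04), so these libraries did not differ beyond counting error. The overexpression control followed, 1.99-fold lower than the wild type control (interval 1.92 to 2.07). Next came antisense cells in the library labelled H2O2 and that labelled ASA, with a ratio of 1.13 (1.07 to 1.20). Wild type ASA and wild type H2O2 (ratio 1.10, 0.994 to 1.21) and, at the bottom, overexpression ASA and overexpression H2O2 (ratio 1.14, 0.870 to 1.50) were pairs of neighbours whose intervals include 1. From the highest to the lowest library the level spanned 78.8-fold, and by its SD over the 9 libraries on the log2(FPKM + 1) scale (2.24) the gene ranked 21 among the 23350.

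The levels left after treatment differed between the lines. In overexpression cells H2O2 left 2.55% of the control level and ASA 2.91%, which is 39.3-fold lower (counting interval 32.4 to 48.0) and 34.4-fold lower (28.6 to 41.7). In antisense cells the libraries labelled H2O2 and ASA held 29.9% and 26.5% of the control level, which is 3.34-fold lower (3.19 to 3.50) and 3.78-fold lower (3.60 to 3.97). In wild type cells 9.88% was left after H2O2 and 10.8% after ASA, which is 10.1-fold lower (9.41 to 10.9) and 9.24-fold lower (8.61 to 9.92). The order of the lines was the same for both treatments, which share the control library of each line. With 1 library per condition the design leaves no residual to test whether the lines differ in this response.

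Among the 23350 tested genes, the difference of POPTR_0003s21610 on the log2(FPKM + 1) scale ranked 15 from the lowest after H2O2 (-5.00) and 16 after ASA (-4.84) in overexpression cells. In antisense cells it ranked 46 (-1.73) in the library labelled H2O2 and 213 (-1.91) in that labelled ASA. In wild type cells it ranked 2 from the lowest after H2O2 (-3.30) and after ASA (-3.17). It was 1 of 22 genes, 0.0942% of those tested (0.515% of those with a description), that were at least 2-fold lower in all 6 treated libraries than in the control of their line. Averaged over the lines by the fit described below, its difference was -3.34 for H2O2 minus control, the lowest of all tested genes, and -3.31 for ASA minus control, where it ranked 2. These ranks describe what chose the gene and support nothing further.

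**Figure D2:**
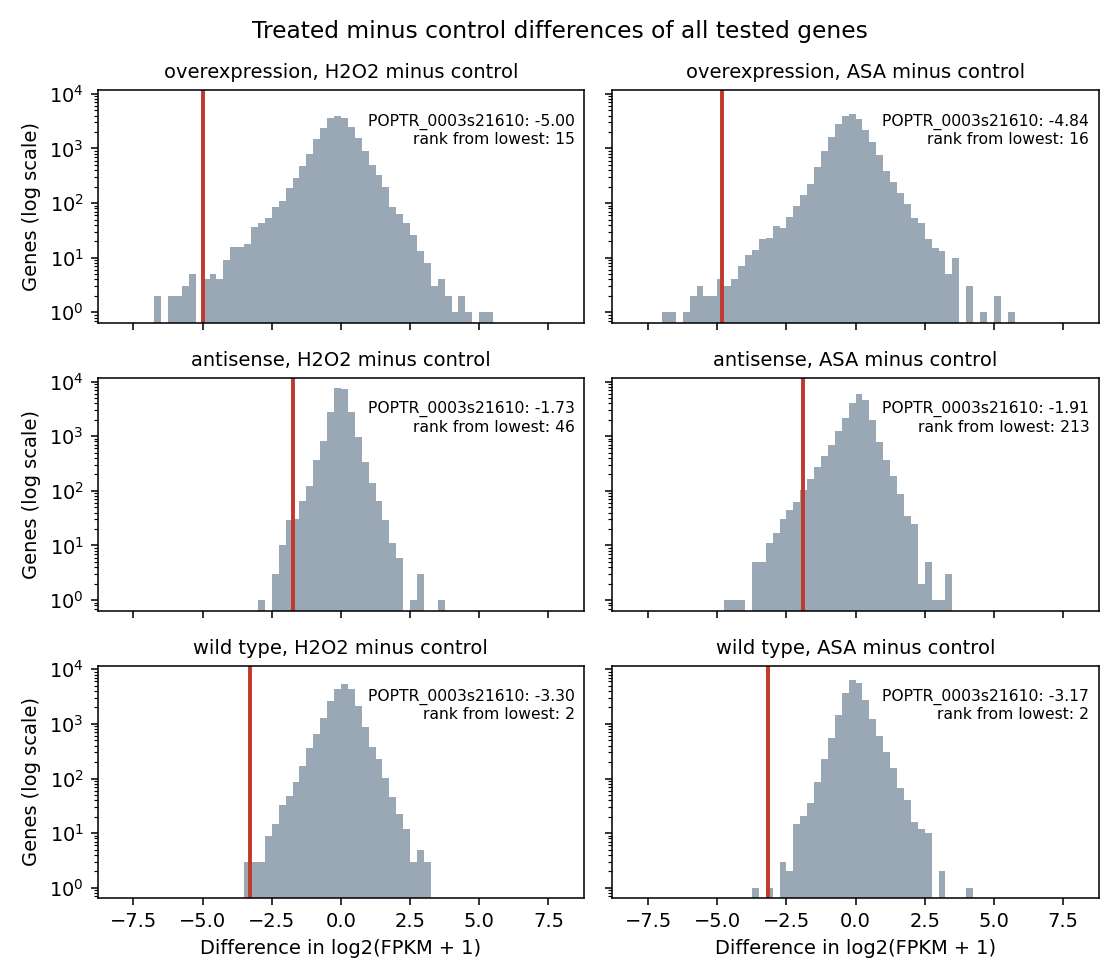
Histograms (log axis) of treated minus control differences in log2(FPKM + 1) for 23350 tested genes, with 1 panel for each line and treatment and a red line at POPTR_0003s21610. The gene lies in the lower tail of every panel, between -5.00 and -1.73.

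The gene was chosen for its treated and control levels among genes with a description. It carries that description only because the authors had listed it in comparisons of lines made on the same libraries. Its line differences were thus selected as well, and the p-values and q-values given for them below are description. After H2O2 the overexpression level was 13.0% of the wild type level (4.27 against 33.0 FPKM, ratio 0.130, counting interval 0.105 to 0.159), and after ASA it was 13.5% (4.87 against 36.1 FPKM). In the controls it was 50.2% (168 against 334 FPKM). The antisense level was 3.05 times the wild type level in the libraries labelled H2O2 (101 against 33.0 FPKM, counting interval 2.82 to 3.31) and 2.47 times in those labelled ASA (89.1 against 36.1 FPKM, 2.28 to 2.67). In the controls it was 1.01 times the wild type level (337 against 334 FPKM). The overexpression line was thus the lower of the pair in 3 of 3 treatments, and the antisense line was clear of wild type beyond counting error in the treated libraries and not in the control. Both sets of ratios share the wild type libraries. Of tested genes 21.8% were lower in overexpression in all 3 treatments, 21.1% were higher in antisense, and 1.64% were both (32.8%, 13.5% and 0.993% of those with a description).

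Over all treatments the gene averaged 59.0 ± 94.2 FPKM in overexpression cells, 176 ± 140 FPKM in antisense cells and 134 ± 173 FPKM in wild type cells (SD over 3 libraries, which includes the treatments). In a limma fit of log2(FPKM + 1) on line and treatment, overexpression minus wild type was -2.11 ± 0.56 (SE), with an adjusted p = 0.0985 (Benjamini-Hochberg over 23350 genes), lower in 3 of 3 treatments and not past the threshold of 0.05. In this comparison 2.86% of tested genes passed, 1.81% as lower, and of those with a description 13.4% passed, 8.79% as lower. Without the overexpression control the difference was -2.91 with an adjusted p = 0.0138, and without both treated overexpression libraries it was -0.52. In that fit the line keeps only its control, which is assumed to vary like the other lines. This control is set against a wild type level fitted with 1 treatment response shared by all lines. The measured overexpression and wild type controls differed by -0.99 on the log2(FPKM + 1) scale. Antisense minus wild type was 0.96 ± 0.56 (adjusted p = 0.692, higher in 3 of 3 treatments, by 1.01 times in the controls), where 0.0814% of tested genes passed (0.0685% as lower), and 0.478% of those with a description (0.442% as lower). Without both treated antisense libraries, where again only the control remains, that fitted difference was -0.55. The measured antisense and wild type controls differed by 0.01 on the log2(FPKM + 1) scale. With no replicates the fit judges a line difference by how much it varies between treatments, and a p that misses the threshold does not show that the lines act alike.

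The authors' deposited tables, which compare a line with wild type within a treatment, list POPTR_0003s21610 in 5 of 6 comparisons. The authors' deposited table for overexpression against wild type gives a log2 fold of -2.87 after H2O2 (q = 5.93e-07), and the authors' deposited table for ASA gives -2.86 (q = 1.73e-07). For the controls the authors' deposited table gives -1.12 (q = 2.11e-15). For antisense against wild type the authors' deposited table gives 1.63 in the libraries labelled H2O2 (q = 9.29e-10), and 1.08 in those labelled ASA (q = 1.26e-06). The antisense control comparison does not list the gene. These q-values come from 2 libraries each and compare those libraries, not the lines. Of the 2976 genes in the authors' tables, 3.26% are listed in at least 5 comparisons.

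The other 17 haem peroxidase genes were set beside it. They carry descriptions only where the authors listed them, so their line differences were selected and are not given as results. Their treatment differences were tested, with POPTR_0003s21610 left out. The authors' comparisons used the same treated and control libraries, so these treatment differences are not free of that selection. Genes with a description were selected in the same way, which makes their share the closer background. In the limma fit 0 of the 17 passed in H2O2 against control, lower or higher, where 0.00428% of tested genes passed as lower (0.0368% of those with a description) and 0% as higher. That single gene was the DUF506 gene POPTR_0019s13100 (-2.37 ± 0.18, adjusted p = 0.0483), named after its value was seen. In ASA against control 0 of the 17 passed, where 0% of tested genes passed in either direction. At an unadjusted p below 0.05, 3 of 17 were lower and 0 higher after H2O2 (3.02% and 3.55% of tested genes, 6.44% and 4.56% of those with a description). After ASA 2 were lower and 0 higher (3.2% and 2.48% of tested genes, 6.66% and 2.54% of those with a description). Voom on the recovered reads called 0 of the 17, and 0% of tested genes, in both contrasts. Lower in all 3 lines were 7 of 17 after H2O2 (14.8% of tested genes, 15.8% of those with a description) and 3 after ASA (13.4% and 11.9%). Higher in all 3 lines were 1 of 17 after H2O2 (15.7% and 12.9%) and 0 after ASA (11.2% and 8.68%).

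Their median difference was -0.45 for H2O2 and -0.36 for ASA, with 13 of 17 below 0 in each. Over all tested genes the medians were -0.01 and -0.05, with 52.2% and 57.5% below 0. Over the tested genes with a description they were -0.15 and -0.10, with 61.0% and 58.6% below 0. The ASA median was -0.01, with 9 of 17 below 0, when both treated antisense libraries were left out. Without both treated overexpression libraries the medians were -0.16 for H2O2 and -0.10 for ASA, with 10 of 17 below 0 in each. In all 6 pairs of a treated library with the control of its line, 3 of the 17 were lower (7.29% of tested genes, and 7.84% of those with a description) and 0 were higher (6.57% and 6.03%). At least 2-fold lower in all 6 pairs were 0 of the 17 (0.0942% of tested genes, and 0.515% of those with a description). The 3 lower in all 6 pairs were POPTR_0005s07390, POPTR_0007s13420 and POPTR_0015s00590. For POPTR_0005s07390 the antisense library labelled ASA was at 37.0 FPKM against 38.6 FPKM in the control. The counting interval of that ratio (0.957, 0.874 to 1.05) includes 1.

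POPTR_0007s13420 was nearest to POPTR_0003s21610 in that its 6 treated libraries also lay below its 3 controls. It had 11.2 FPKM after H2O2 and 18.3 after ASA against 64.7 FPKM in the overexpression control, and 19.0 and 18.1 FPKM against 68.1 FPKM in the antisense control. In wild type it had 17.0 FPKM after H2O2 and 20.0 FPKM after ASA against 27.7 FPKM in the control. Its fitted differences were -1.63 ± 0.34 for H2O2 (limma adjusted p = 0.501) and -1.36 ± 0.34 for ASA (limma adjusted p = 0.707). Its share left was smaller in antisense (27.9% and 26.6% of control) than in wild type (61.6% and 72.1%), the reverse of the order in POPTR_0003s21610.

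POPTR_0015s00590, the gene with the lowest mean of the 18 (9.45 FPKM), had 1.46 FPKM after H2O2 and 2.06 FPKM after ASA against 16.3 FPKM in the overexpression control. In antisense it had 3.54 and 5.34 FPKM against 7.30 FPKM in the control, and in wild type 13.8 and 10.0 FPKM against 25.2 FPKM in the control. Its fitted differences were -1.50 ± 0.43 for H2O2 and -1.38 ± 0.43 for ASA. POPTR_0017s06550 had 4.77 and 5.88 FPKM in treated overexpression cells against 27.9 FPKM in that control, while its antisense and wild type libraries spanned 22.4 to 41.0 FPKM. Its fitted differences were -0.88 ± 0.47 and -0.70 ± 0.47.

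Apart from the 3 genes lower in all 6 pairs, every other described haem peroxidase gene was higher in at least 1 pair. Not all of these rises were beyond counting error. POPTR_0006s13190, whose description lacks the haem-ligand and active site entries, had 13.7 FPKM after H2O2 and 16.2 FPKM after ASA against 38.5 FPKM in the overexpression control. In antisense it had 110 FPKM in the library labelled H2O2 and 138 FPKM in that labelled ASA against 36.4 FPKM in the control. In wild type it had 532 FPKM after H2O2 and 403 FPKM after ASA against 138 FPKM in the control. The treated levels thus lay above the control in antisense and wild type and below it in overexpression, and the fitted differences were 0.70 ± 0.64 and 0.75 ± 0.64.

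POPTR_0005s21740 had 618 FPKM after H2O2 and 554 FPKM after ASA against 607 FPKM in the overexpression control, and 426 and 546 FPKM against 278 FPKM in the antisense control. In wild type it had 507 and 326 FPKM against 171 FPKM in the control. It was the 1 other described haem peroxidase gene higher in all 3 lines after H2O2. In overexpression, however, the counting interval of its H2O2 ratio (1.02, 0.996 to 1.04) includes 1. Its fitted differences were 0.73 ± 0.32 for H2O2 (limma adjusted p = 0.748) and 0.59 ± 0.32 for ASA. POPTR_0001s05050 had fitted differences of 0.46 ± 0.28 and 0.21 ± 0.28, and POPTR_0002s06590 of -0.29 ± 0.56 and 0.19 ± 0.56.

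**Figure D3:**
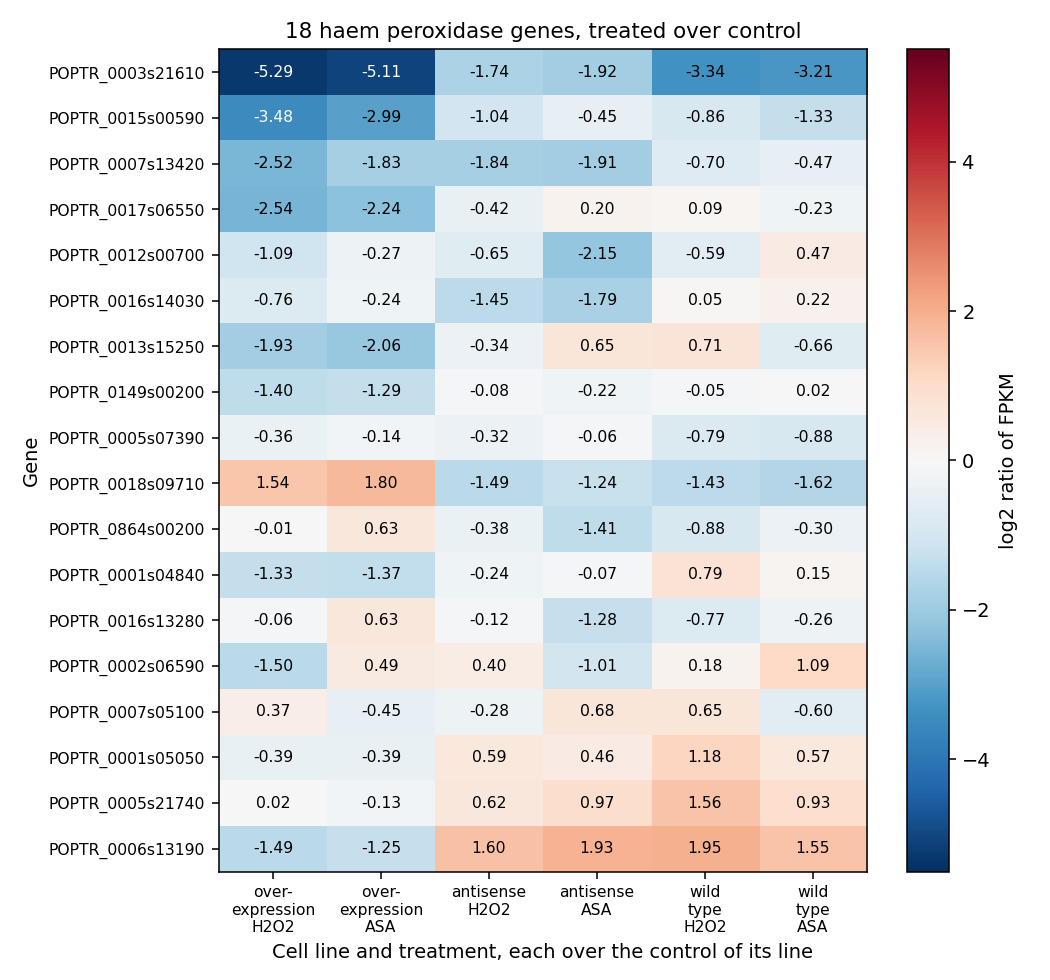
log2 ratio of FPKM, treated over control of the same line, for 18 haem peroxidase genes (rows, ordered by their mean) in 6 pairs of libraries (columns). POPTR_0003s21610, in the top row, runs from -5.29 to -1.74, whereas POPTR_0006s13190, in the bottom row, is negative in overexpression and positive in the other lines.

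The most abundant of the 18 described genes was POPTR_0012s00700, with a mean of 965 FPKM over the 9 libraries. It had 514 FPKM after H2O2 and 907 FPKM after ASA against 1097 FPKM in the overexpression control, 908 and 321 FPKM against 1422 FPKM in the antisense control, and 765 and 1595 FPKM against 1154 FPKM in the wild type control. Its fitted differences were -0.78 ± 0.52 and -0.65 ± 0.52. POPTR_0001s04840 had a mean of 233 FPKM and fitted differences of -0.26 ± 0.38 and -0.43 ± 0.38, and POPTR_0007s05100 had a mean of 121 FPKM and fitted differences of 0.25 ± 0.38 and -0.12 ± 0.38. By the same mean (123 FPKM) POPTR_0003s21610 ranked 5 of the 18.

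These 18 genes carry descriptions because the authors listed them in comparisons of lines. Haem peroxidase genes that were not listed would be missing from the ranks and sums given here. Among the 18 genes the place of POPTR_0003s21610 depended on the condition. After treatment it ranked 17 (H2O2) and 16 (ASA) of 18 in overexpression, 7 in antisense and 13 in wild type, against 4 of 18 in the overexpression control and 2 of 18 in both other controls. It held 0.223% of the FPKM summed over the 18 genes after H2O2 and 0.208% after ASA in overexpression, against 5.57% in that control. In antisense it held 4.16% and 4.49% against 10.5% in the control, and in wild type 1.15% and 1.11% against 11.7% in the control. The sum itself was 1919 and 2343 FPKM against 3013 FPKM in overexpression, 2421 and 1985 FPKM against 3209 FPKM in antisense, and 2861 and 3256 FPKM against 2851 FPKM in wild type. In wild type the sum was thus not lower after either treatment, though for H2O2 the sums were nearly equal. They include POPTR_0006s13190, at 532 FPKM after H2O2 and 403 FPKM after ASA against 138 FPKM in the wild type control. Its rise after H2O2 exceeds the difference between those sums, and its description lacks the haem-ligand and active site entries. The sum therefore does not show that the other genes kept their level.

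**Figure D4:**
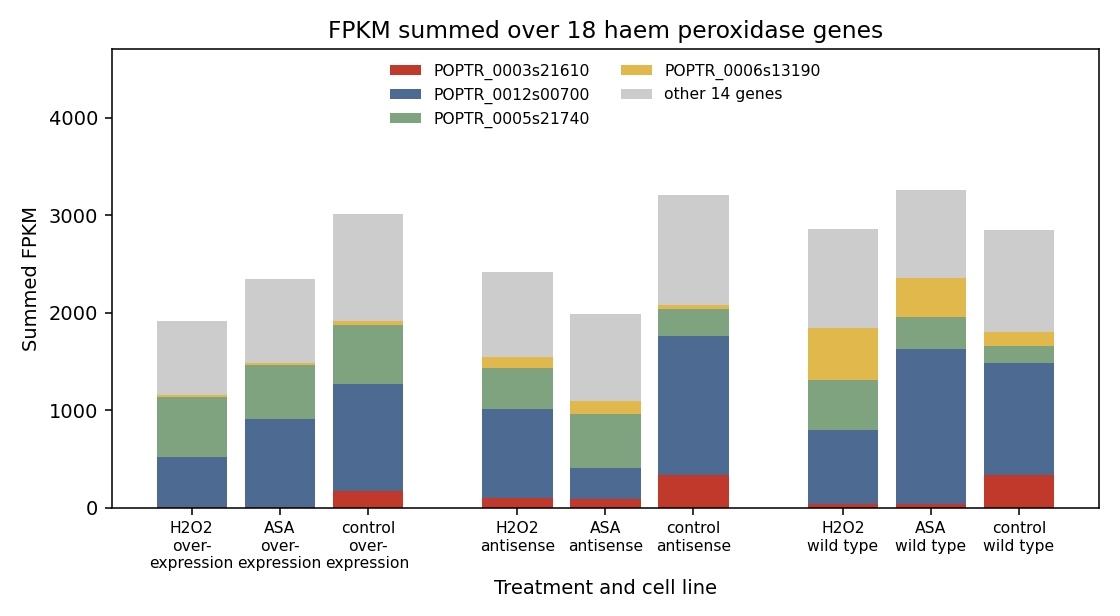
FPKM summed over 18 haem peroxidase genes in each library, stacked as POPTR_0003s21610 at the base, the 3 genes named in the key and the other 14 together. In wild type its segment is 33.0 of 2861 FPKM after H2O2, against 334 of 2851 FPKM in the control.

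H2O2 and ASA left POPTR_0003s21610 at nearly the same level in each line. The H2O2 level was 0.877 times the ASA level in overexpression (counting interval 0.668 to 1.15), 1.13 times in antisense (1.07 to 1.20) and 0.913 times in wild type (0.828 to 1.01). The largest fold between both treatments in either direction was 1.14, the second smallest of the 18 genes after POPTR_0149s00200 (1.11). The median over 23240 tested genes with reads in every library was 1.47. Because the gene was chosen for lower levels after both treatments, its place in this order is description and supports nothing further. POPTR_0012s00700 reached 2.83-fold and POPTR_0002s06590 3.97-fold. The sign of the H2O2 and ASA difference was opposite in antisense and wild type for 16 of the 17 other genes, against 82.6% of tested genes and 90.9% of those with a description.

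Genes of related function were few among the described genes. The background for the medians given here is -0.15 for H2O2 and -0.10 for ASA over the tested genes with a description. The single catalase gene, POPTR_0005s27300, whose enzyme breaks down H2O2, was lower in all 6 pairs, as were 7.29% of tested genes (7.84% of those with a description). In overexpression it had 19.4 FPKM after H2O2 and 34.5 FPKM after ASA against 75.0 FPKM in the control. It had 74.1 and 66.1 FPKM against 111 FPKM in the antisense control, and 66.1 and 79.4 FPKM against 79.5 FPKM in the wild type control. The wild type ASA pair was thus nearly equal and shows no clear fall. The fitted differences of the catalase, -0.91 ± 0.32 and -0.61 ± 0.32, did not pass. The single superoxide dismutase, POPTR_0015s12190, which forms H2O2 from superoxide, was at -0.47 ± 0.44 and -0.84 ± 0.44. Thiol-based peroxidases, 3 genes led by the glutathione peroxidase POPTR_0001s09270 (mean 309 FPKM) and POPTR_0016s07280 (59.8 FPKM), had medians of -0.28 and -0.27. The 5 NADPH oxidases, which make superoxide at the plasma membrane, had medians of -0.25 and -0.15 and were led by POPTR_0005s02630 (169 FPKM) and POPTR_0003s15810 (27.1 FPKM).

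Among genes of the cell wall, the 8 multicopper oxidases, a family that includes laccases, which also oxidise monolignols, had medians of -0.03 for H2O2 and -0.31 for ASA. Their most abundant members were POPTR_0005s26900 (146 FPKM) and POPTR_0004s18730 (131 FPKM). The 2 phenylalanine ammonia-lyases, POPTR_0006s12870 (182 FPKM) and POPTR_0016s09230 (107 FPKM), which open the phenylpropanoid pathway, had medians of -0.15 and -0.13. The 15 pectinesterase or pectinesterase inhibitor genes had medians of -0.02 and 0.06 and were led by POPTR_0012s14560 (773 FPKM) and POPTR_0010s11950 (120 FPKM). The 7 extensin or proline-rich wall protein genes, led by POPTR_0004s04450 (1680 FPKM) and POPTR_0002s09370 (408 FPKM), had medians of 0.05 and 0.18. The 10 cellulose synthase genes, led by POPTR_0007s07120 (72.6 FPKM) and POPTR_0005s08970 (69.3 FPKM), had medians of -0.27 in both, and the single disease resistance response (dirigent-type) gene POPTR_0003s21450 was at -1.36 ± 0.46 and -0.89 ± 0.46. In these lists 0 members passed by limma in either treatment contrast. For H2O2 0.00428% of tested genes passed as lower and 0% as higher, and for ASA 0% passed in either direction. With so few genes passing anywhere, these counts say little about the lists. At an unadjusted p below 0.05, which 6.57% of tested genes had for H2O2 and 5.67% for ASA (299 and 250 of the 2718 with a description), the members named here were chosen after their values were seen. For H2O2 the catalase and the dirigent-type gene were lower, whereas the multicopper oxidase POPTR_0015s14780 (0.74 ± 0.27), the extensin POPTR_0005s08000 (2.0 ± 0.79) and the cellulose synthase POPTR_0014s12000 (0.90 ± 0.26) were higher. For ASA the multicopper oxidase POPTR_0007s11600 was lower (-0.75 ± 0.22) and the extensin POPTR_0004s04450 higher (0.74 ± 0.30).

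The genes whose pattern was most like that of POPTR_0003s21610 were sought by Pearson correlation of log2(FPKM + 1) over the 9 libraries, which share lines and treatments, so r is a description. The closest 10 of all tested genes had r from 0.965 to 0.983, and 8 of them have no description. These were POPTR_0013s03930, POPTR_0001s04650, POPTR_0006s03310, POPTR_0010s21490, POPTR_0007s04990, POPTR_0001s04560, POPTR_0002s19170 and POPTR_0012s03610. Their ranges were smaller, from 1.90-fold between the highest and lowest library for POPTR_0007s04990 to 14.8-fold for POPTR_0012s03610. POPTR_0013s03930, the closest (r = 0.983), had 17.4 FPKM after H2O2 and 17.3 FPKM after ASA against 29.5 FPKM in the overexpression control.

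Of the described genes, the closest was POPTR_0004s00480 (r = 0.975), a plastid lipid-associated fibrillin by its description, with 8.05 FPKM after H2O2 and 8.97 FPKM after ASA against 36.1 FPKM in overexpression. It had 31.1 and 29.4 FPKM against 43.7 FPKM in antisense, and 25.1 and 23.5 FPKM against 39.7 FPKM in wild type. POPTR_0014s17850 (r = 0.966) is described as a fatty acid hydroxylase with a Wax2 domain and had 1.76 and 3.77 FPKM against 24.2 FPKM in overexpression, 32.5 and 34.0 FPKM against 50.8 FPKM in antisense, and 16.1 and 11.5 FPKM against 49.1 FPKM in wild type. The O-methyltransferase gene POPTR_0004s04990 (r = 0.955) had 2.49 and 1.79 FPKM against 65.7 FPKM in overexpression, 25.5 and 22.0 FPKM against 76.9 FPKM in antisense, and 24.7 and 25.2 FPKM against 58.2 FPKM in wild type.

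The FAD-linked oxidase genes POPTR_0011s16560 and POPTR_0254s00230 (r = 0.951 for each) completed the 5. POPTR_0011s16560 had 13.0 and 11.7 FPKM against 1310 FPKM in overexpression, 544 and 561 FPKM against 1684 FPKM in antisense, and 459 and 400.0 FPKM against 1221 FPKM in wild type. Whether this pair shares reads as near-identical copies was not tested, so their values are uncertain as separate signals. For the other 17 haem peroxidases, which were not picked by r, it ran from -0.618 for POPTR_0005s21740 to 0.804 for POPTR_0017s06550. Their median was 0.322, against 0.149 over all tested genes, of which 0.805% had r of at least 0.9. The genes above were picked for a high r, so their higher values were set by that choice.

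**Figure D5:**
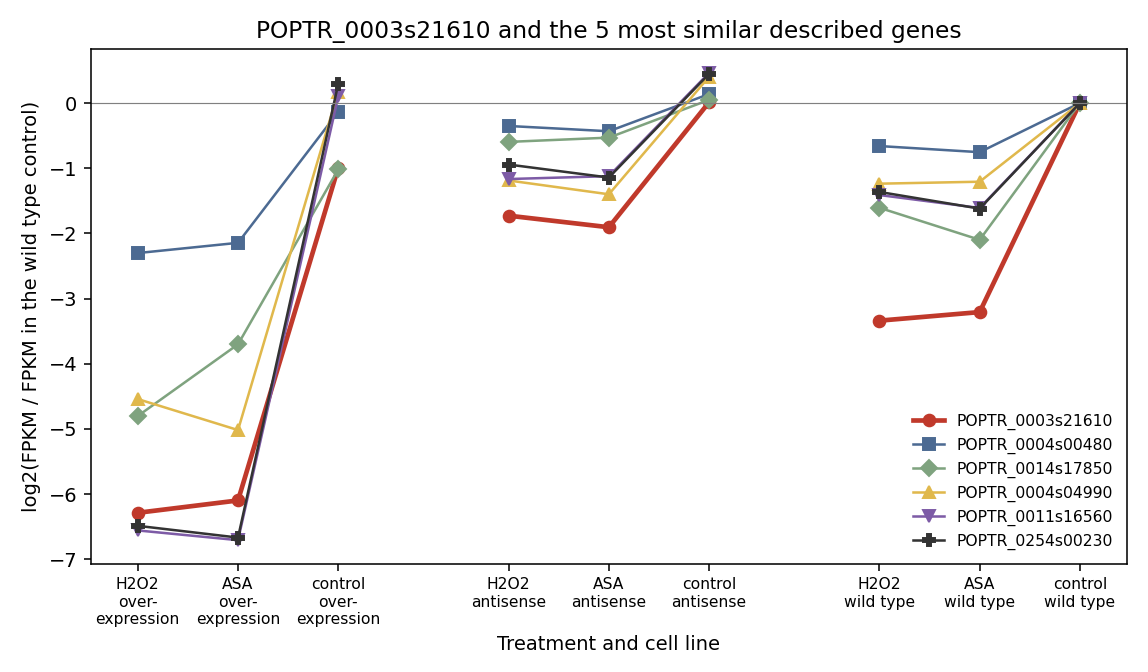
log2 of FPKM relative to the wild type control for POPTR_0003s21610 and the 5 described genes most like it, by line and treatment, with 1 point per library. In each line the treated libraries lie below the control, and the treated values of POPTR_0003s21610 lie below those of the other 5 genes in antisense and wild type.

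The identifiers nearest by number did not share its values. POPTR_0003s21590 had 32.1 FPKM after H2O2 and 34.3 FPKM after ASA against 32.8 FPKM in overexpression, 52.6 and 57.7 FPKM against 58.0 FPKM in antisense, and 74.2 and 62.6 FPKM against 99.7 FPKM in wild type. POPTR_0003s21620 had 2 reads in the library labelled antisense H2O2, 1 in wild type ASA and 0 in the other 7, and POPTR_0003s21600 and POPTR_0003s21630 were listed at 0 in all 9. Whether these genes neighbour it in the genome was not examined.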

How the data were processed

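The authors deposited FPKM values for 41624 genes in 9 libraries. The submitters' processing notes name HTSeq 0.6.1, Bowtie2 2.2.3, TopHat and TopHat2 2.0.12, without roles. Which build was used is not given in the sources used here. A further 6 tables deposited by the authors compare a line with wild type and per the file headers hold scaled read counts (a signal of unstated scaling), log2 fold changes, p-values and q-values. Every listed gene has a log2 fold of 1 or more in size, and they cover 2976 genes and describe 2719. None of the identifiers matched the RefSeq gene table (0 matched).

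Libraries were grouped by title. All 33158 genes above 0 gave whole reads (100%, relative tolerance 5e-09), which supplied depth and exact 95% counting intervals. The main test was an additive model of line and treatment fitted to log2(FPKM + 1) with limma 3.58.1 (R 4.3.3), with 4 residual degrees of freedom and a trend on mean expression. It covered 23350 genes whose mean reached 1 FPKM, with Benjamini-Hochberg adjustment and a threshold of 0.05. The fit was tested on simulated data. The gene, the lists and the naming rule were chosen with earlier results of these data known. Named genes were the 5 most abundant other haem peroxidases, the 4 lowest and 4 highest in each treatment contrast, the 10 most similar genes and 5 most similar described genes, the nearest identifiers and the 2 most abundant genes of each list. Alternatives are given in the closing section.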

Additional observations from a re-analysis of the deposited data

Results flagged for a closer look

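For the 5 most abundant other haem peroxidases the H2O2 over ASA ratio ran in opposite directions in antisense and wild type cells, beyond counting error in each, as the ratio also did, by sign, in 82.6% of tested genes and 90.9% of those with a description. The difference between the lines was not tested, since each ratio rests on 2 libraries. On the log2 scale POPTR_0012s00700 was at 1.50 in antisense and -1.06 in wild type, a difference of 2.56. POPTR_0007s05100 was at -0.95 in antisense and 1.24 in wild type, a difference of -2.20. POPTR_0005s21740 was at -0.36 in antisense and 0.63 in wild type, a difference of -0.99. POPTR_0001s04840 was at -0.17 in antisense and 0.63 in wild type, a difference of -0.81, and POPTR_0006s13190 was at -0.33 in antisense and 0.40 in wild type, a difference of -0.74. POPTR_0003s21610 had 0.18 in antisense and -0.13 in wild type, where the counting interval of the wild type ratio (0.828 to 1.01) includes 1.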

How the results depend on the processing

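The fit includes line, so treatments were compared within lines. Replicates could not be paired, because each condition has 1 library and the labels give no replicate numbers. Over 17 alternatives the overexpression difference of POPTR_0003s21610 stayed negative (-2.91 to -0.52), and leaving out 1 library gave -2.91 to -1.67 with adjusted p from 0.0138 to 0.368, past the threshold only without the overexpression control. The antisense difference ran from 0.50 to 1.71 with 1 library left out and was -0.55 without both treated antisense libraries, an alternative in which only the antisense control remains. The measured antisense and wild type controls differed by 0.01 on the log2(FPKM + 1) scale. The counts of other haem peroxidases past the threshold in H2O2 or ASA against control were 0 in all 17. As a log2 ratio, the overexpression H2O2 over control value of -5.29 was -5.00 on the log2(FPKM + 1) scale, and the antisense ASA over control value of -1.92 was -2.03 after each library was rescaled to its median. That rescaling, by -0.12 to 0.15, changed no sign of the 6 ratios. Of the 10 most similar genes, 2 were among the 10 by Spearman correlation and 8 with a pseudocount of 0.1. Leaving out both treated overexpression libraries was chosen after seeing the data. The precision of overexpression ratios is limited by 107 and 117 reads.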
